A study of Saccharomyces cerevisiae with 22 samples.

Results

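The 10 peroxidase, catalase and other oxidant defence genes of budding yeast described here were chosen by name from 6242 genes measured on 22 two-colour arrays, and 9 of them had enough values to be tested. They code for the peroxiredoxins AHP1 (YLR109W) and TSA1 (YML028W), the thioredoxin TRX2 (YGR209C), the superoxide dismutases SOD1 (YJR104C) and SOD2 (YHR008C), the catalases CTT1 (YGR088W) and CTA1 (YDR256C), the glutathione peroxidase-like GPX2 (YBR244W), the cytochrome c peroxidase CCP1 (YKR066C) and the flavohaemoglobin YHB1 (YGR234W). Superoxide dismutases turn superoxide into hydrogen peroxide, which catalases split directly and which peroxiredoxins and other peroxidases reduce with electrons from thioredoxin, glutathione or cytochrome c. In yeast, Yap1 and Skn7 activate peroxiredoxin and thioredoxin genes under oxidant stress, while catalase genes are also held down by glucose. The drug 3-amino-1,2,4-triazole (3AT), used in yeast to inhibit His3 of histidine synthesis, is also a classical inhibitor of catalase.

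Cultures were grown in chemostats, sampled at galactose steady state, switched to glucose, and sampled again on the way to and at a new steady state. The 3AT40mM chemostat held 40 mM 3AT and gave 2 galactose arrays, 5 from glucose ahead of steady state and 1 once steady. The no3AT chemostat gave 2, 4 and 2, and no3AT2, a second culture without the inhibitor, gave 1, 2 and 3. Each chemostat is 1 culture, and the labels give no strain genotype. All cells carry HIS3 behind the GAL1 promoter, which is knowledge of the study that the labels do not give. The labels list total RNA for 3AT40mM and no3AT and polyA RNA for no3AT2, so the kind of RNA and the culture cannot be told apart there. All values below are log2 ratios of a sample over a common pool of glucose and galactose RNA, with each array centred on its median. The log base is not stated and was taken as 2. Such a ratio ranks samples for 1 gene and says nothing of the level of a gene against another gene. AHP1, TSA1, TRX2, SOD2, GPX2, CCP1 and YHB1 had a value on all 22 arrays, CTA1 on 21, CTT1 on 20 and SOD1 on 18.

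At glucose steady state AHP1 and TRX2 stood above galactose steady state in all 3 cultures, and GPX2 stood below. Over the 3 chemostats AHP1 rose by 1.87 on the log2 scale (SE 0.38), TRX2 rose by 1.02 (SE 0.27), and GPX2 fell by 0.87 (SE 0.27). Of the 9 members tested, 2 were higher and 1 was lower by limma's test at an adjusted p under 0.05, where 4.54% of all 4783 genes were called higher and 13.0% lower. TSA1, SOD2 and CCP1 were higher and CTT1 and YHB1 lower in all 3 cultures without passing. How many of all genes kept their direction in all 3 cultures was not counted, so here and below that agreement is description only. The median of the 9 tested members was 0.79, beside 0.02 over all genes. In bulk RNA of this kind, fewer cells with a transcript and less of it per cell cannot be told apart.

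AHP1 codes for a peroxiredoxin that prefers alkyl hydroperoxides and takes its electrons from thioredoxin. At glucose steady state its ratio was 0.86 on the 3AT40mM array, -0.55 and -0.02 in no3AT, and 0.10, 0.83 and -0.26 in no3AT2. At galactose steady state it was -1.05 and -1.21 in 3AT40mM, -2.46 and -2.01 in no3AT, and -1.44 in no3AT2. Every glucose steady array lay above every galactose array. The change had a 95% interval of 1.06 to 2.68 and an adjusted p of 0.00536 (limma, n = 3 chemostats), and was the fifth highest of 4783 genes (rank 5). Within the cultures it was 1.99 (SE 0.72) in 3AT40mM, 1.95 (SE 0.59) in no3AT and 1.67 (SE 0.68) in no3AT2. Each of these missed the threshold on its own, with limma adjusted p of 0.243, 0.138 and 0.230, in comparisons that called 0%, 0.0836% and 1.38% of genes.

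The deposited rows run in order of systematic gene name, and nearby rows moved together on some arrays. Values were therefore also taken relative to the median of nearby rows, 10 to each side at a step of 2 rows (neighbour-corrected). On that scale the AHP1 change was 1.61 (SE 0.31, limma adjusted p = 0.0610), and the neighbours' own median moved by 0.26. AHP1 also missed the threshold without the 3AT40mM chemostat, at 1.81 (adjusted p = 0.108).

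TRX2 codes for a cytosolic thioredoxin that passes electrons to peroxiredoxins, and its galactose values were tightly grouped. In steady glucose its ratio was 0.08 in 3AT40mM, -0.64 and 0.24 in no3AT, and -0.87, -0.53 and -0.02 in no3AT2. Its 5 galactose values, from all 3 cultures, lay between -1.31 and -1.15. No glucose steady array reached down into that range. The change passed with an adjusted p of 0.0218 (limma, n = 3 chemostats, higher in 3 of 3). On the neighbour-corrected scale it missed, at 0.97 (adjusted p = 0.104), and without the only 3AT40mM glucose steady array at 0.86 (adjusted p = 0.155). It also missed without 344 hours of no3AT (adjusted p = 0.0630), without 552 hours of 3AT40mM (adjusted p = 0.0608), without no3AT (0.997, adjusted p = 0.126) and without 3AT40mM (0.87, adjusted p = 0.274).

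TSA1, the main cytosolic peroxiredoxin for hydrogen peroxide, stood at 1.21 (SE 0.40, limma adjusted p = 0.0504), at the edge of the threshold. Its glucose steady values were 0.75 in 3AT40mM, 0.23 and 0.36 in no3AT, and 0.58, 1.26 and 0.36 in no3AT2. The galactose values were -0.85 and -1.04 in 3AT40mM, -1.44 and -0.81 in no3AT, and 0.24 in no3AT2. The groups were apart in 3AT40mM and in no3AT, and over all cultures they overlapped only through the galactose array of no3AT2. Without that array the estimate was 1.76 (adjusted p = 0.0332), above the changes of 1.70 in 3AT40mM and 1.42 in no3AT. That estimate also drew on the early glucose arrays of no3AT2. With the neighbour-corrected values of all 3 chemostats the TSA1 change was 0.64 (adjusted p = 0.374), and the neighbours' median had moved by 0.57. On that scale TSA1 changed by 0.87 in 3AT40mM, 1.19 in no3AT and -0.14 in no3AT2.

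**Figure D1:**
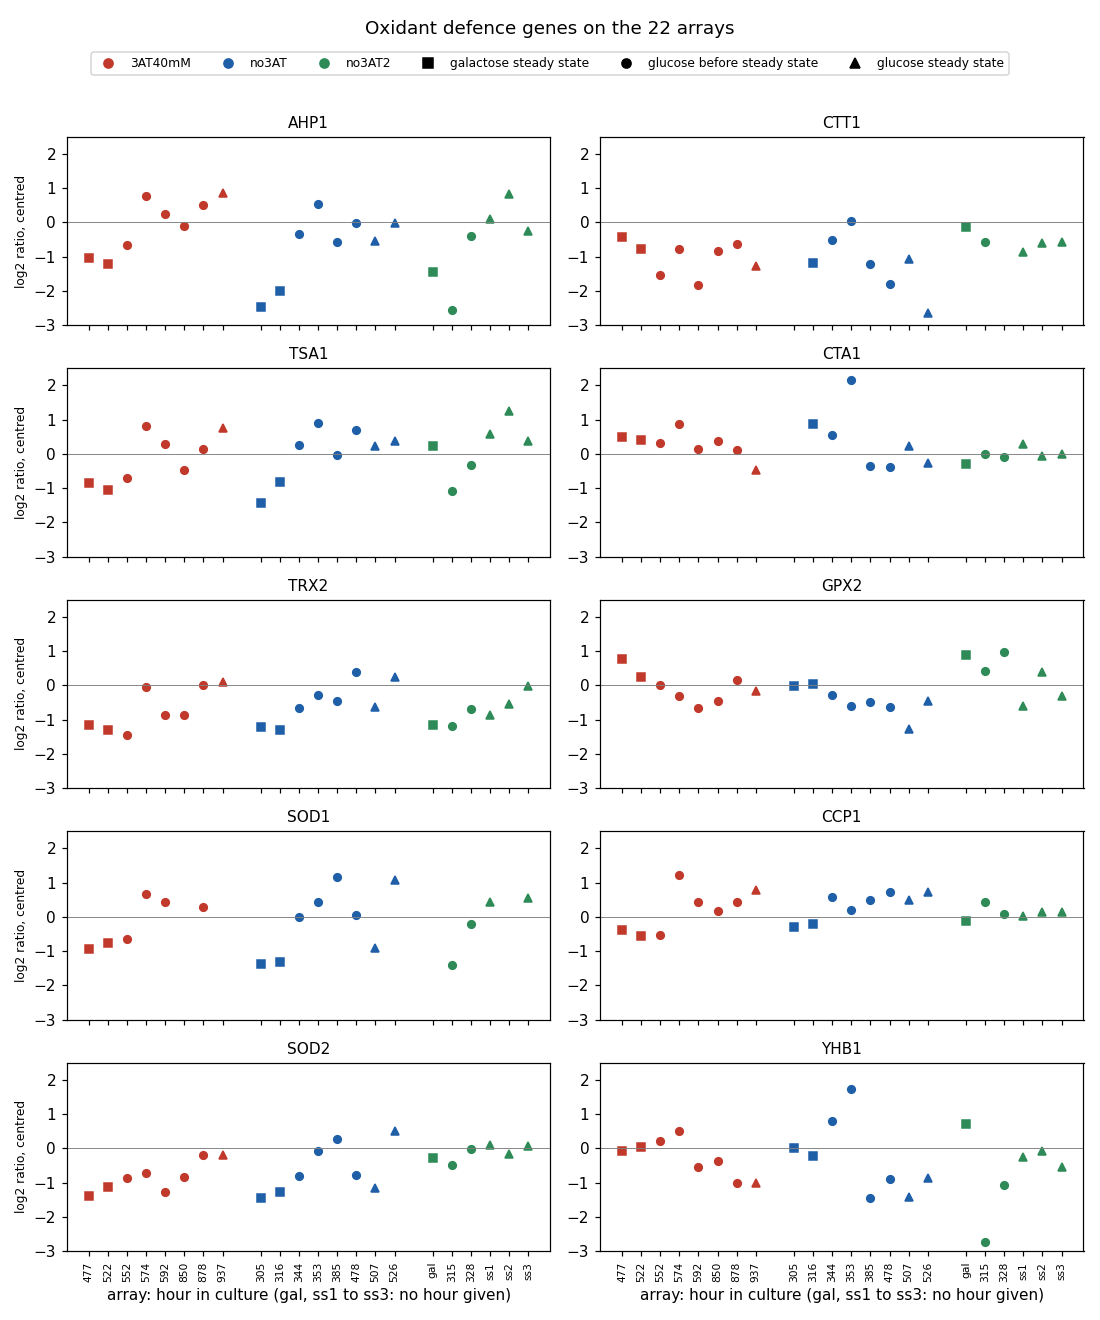
Centred log2 ratios over the reference pool of the 10 genes on the 22 arrays, 1 panel a gene, with arrays along the x axis by culture and hour; colours mark the chemostats and symbols the phases. AHP1 and TRX2 sit lowest on the galactose arrays, apart from AHP1 at 315 hours in no3AT2 (-2.55) and TRX2 at 552 hours in 3AT40mM (-1.44) and at 315 hours in no3AT2 (-1.20), and YHB1 spreads most, between -2.75 and 1.74.

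SOD1, the copper and zinc superoxide dismutase of the cytosol, had no value at glucose steady state in 3AT40mM or at galactose steady state in no3AT2, so it entered no test. Its galactose values were -0.95 and -0.75 in 3AT40mM and -1.37 and -1.31 in no3AT. In glucose it was above its culture's own galactose mean on 10 of 10 arrays with a value in these 2 cultures, by 0.21 to 2.51 (median 1.36). The no3AT glucose steady arrays were unlike each other, at -0.92 at 507 hours and 1.09 at 526 hours. The median of the neighbouring rows moved the same way there, at 0.08 and 1.19, and its part in the SOD1 values was not tested. In no3AT2 the glucose values were -1.41 and -0.21 before steady state, then 0.45 and 0.54 at steady state.

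SOD2, the manganese superoxide dismutase of the mitochondrial matrix, stood at 0.79 (SE 0.28, limma adjusted p = 0.0666) and was higher in 3 of 3 cultures. In steady glucose it was -0.19 in 3AT40mM, -1.16 and 0.50 in no3AT, and 0.09, -0.18 and 0.05 in no3AT2. At galactose steady state it was -1.38 and -1.12 in 3AT40mM, -1.45 and -1.28 in no3AT, and -0.29 in no3AT2. The 507 hour array thus lay within the galactose range while the other 5 glucose steady arrays lay above it. The neighbour-corrected change was 0.51 (SE 0.30, limma adjusted p = 0.369), and the neighbours' median moved by 0.28. On that scale SOD2 changed by 0.77 in 3AT40mM, 0.80 in no3AT and -0.04 in no3AT2.

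CTT1, the cytosolic catalase of the general stress response, stood at -0.62 (SE 0.33, 95% interval -1.33 to 0.09, limma adjusted p = 0.195), lower in 3 of 3 cultures. Its glucose steady values were -1.29 in 3AT40mM, -1.06 and -2.64 in no3AT, and -0.87, -0.60 and -0.57 in no3AT2. At galactose steady state they were -0.43 and -0.79 in 3AT40mM, -1.19 in no3AT and -0.14 in no3AT2. All 6 glucose values were below 0, as were all 4 galactose values, and the 2 groups overlapped. The neighbour-corrected change was -0.78 (SE 0.29, adjusted p = 0.180). CTT1 lacked the 305 hour array of no3AT and the 328 hour array of no3AT2.

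CTA1, the catalase of peroxisomes and mitochondria, had no shared direction. Its glucose steady values were -0.47 in 3AT40mM, 0.24 and -0.28 in no3AT, and 0.30, -0.07 and 0.01 in no3AT2. In galactose it was at 0.49 and 0.40 in 3AT40mM, 0.87 in no3AT and -0.29 in no3AT2. Its change was -0.91 (SE 0.56) in 3AT40mM, -0.89 (SE 0.56) in no3AT and 0.36 (SE 0.53) in no3AT2. Over the 3 cultures it was -0.48 (SE 0.32, limma adjusted p = 0.302). Without no3AT2 it was -0.90 and passed (adjusted p = 0.0320), with 1 galactose value for no3AT, at 316 hours. Fits that left out an array or a chemostat called from 173 to 1154 of all genes, so this pass cannot be read as particular to CTA1.

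GPX2, a glutathione peroxidase-like enzyme that acts on peroxides, fell by 0.87 with an adjusted p of 0.0418 (limma, n = 3 chemostats, lower in 3 of 3). In steady glucose its ratio was -0.17 in 3AT40mM, -1.27 and -0.47 in no3AT, and -0.59, 0.38 and -0.32 in no3AT2. At galactose steady state it was 0.76 and 0.25 in 3AT40mM, -0.02 and 0.04 in no3AT, and 0.89 in no3AT2. Within each culture the glucose steady arrays lay below the galactose arrays, a pattern that was not counted over all genes. The rows beside GPX2 moved almost as far: the median of its neighbours changed by -0.81, and the neighbour-corrected change was -0.06 (SE 0.25, adjusted p = 0.919). The call ended under 17 alternatives in all, with the fit without 552 hours entered in duplicate. Among them were fits without the array at 507 hours (-0.74, adjusted p = 0.128), without the only galactose array of no3AT2 (-0.89, adjusted p = 0.0990) and without each chemostat. The other arrays whose absence ended the call were those at 477, 552, 574 and 937 hours in 3AT40mM, at 316 and 344 hours in no3AT, and at 328 hours and the steady array 1 in no3AT2, with adjusted p between 0.0504 and 0.0949.

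CCP1, the peroxidase of the mitochondrial intermembrane space that draws electrons from cytochrome c, stood at 0.79 (SE 0.28, limma adjusted p = 0.0680). Its glucose steady values were 0.80 in 3AT40mM, 0.51 and 0.74 in no3AT, and 0.01, 0.15 and 0.13 in no3AT2. At galactose steady state it was -0.38 and -0.57 in 3AT40mM, -0.30 and -0.22 in no3AT, and -0.11 in no3AT2. Like AHP1 and TRX2, CCP1 thus had all glucose steady arrays above all galactose arrays, a pattern that 6.10% of the 4783 genes showed in this direction. The neighbour-corrected change was 0.53 (SE 0.23, adjusted p = 0.237).

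YHB1, which turns nitric oxide into nitrate, had a change of like size in each culture. In no3AT2 its glucose steady values were -0.24, -0.09 and -0.55, against 0.70 in galactose, and the other cultures are given array by array further on. Its change at glucose steady state was -0.99 (SE 0.58) in 3AT40mM, -1.01 (SE 0.47) in no3AT and -0.99 (SE 0.55) in no3AT2. Over the 3 chemostats it was -1.0 (SE 0.58, limma adjusted p = 0.232). Without no3AT2, on 3AT40mM and no3AT alone, it was also -1.0 and passed (adjusted p = 0.0300). Fits that left out an array or a chemostat called from 173 to 1154 of all genes. Without the only galactose array of no3AT2 the YHB1 estimate was -0.42 and did not pass. The changes given for 3AT40mM and no3AT do not use that array, and the estimate then also drew on the early glucose arrays of no3AT2.

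**Figure D2:**
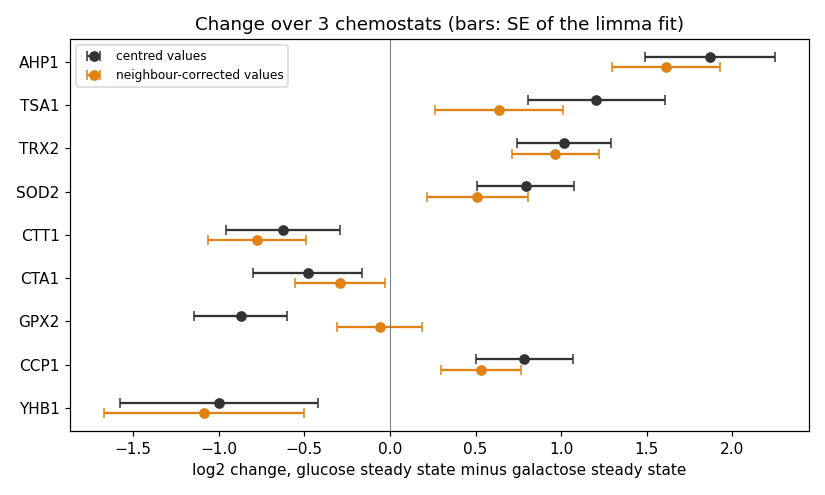
Log2 change at glucose steady state minus galactose steady state over 3 chemostats for the 9 tested genes, with bars of 1 SE, from centred and from neighbour-corrected values. AHP1 (1.87 and 1.61) and TRX2 (1.02 and 0.97) differ little between the scales, though neither passes on the second, while GPX2 goes to -0.06 and TSA1 to 0.64.

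The 2 earliest labelled times in glucose of each culture, called early glucose, were set against galactose steady state to ask how the genes responded at first. None of the 9 tested members passed limma's test over 3 chemostats (0, with 2 at an unadjusted p under 0.05), where 0.251% of all genes were called higher and 6.86% lower. AHP1 passed with quantile normalization (1.52, adjusted p = 0.0124), with all glucose arrays before steady state taken as early (1.13, adjusted p = 0.0493), without 552 hours of 3AT40mM (1.40, adjusted p = 0.0460), without 315 hours of no3AT2 (1.52, adjusted p = 0.00599) and without no3AT2 (1.76, adjusted p = 0.00887). TSA1 passed without no3AT2 (1.35, adjusted p = 0.0176), where fits that left out an array or a chemostat called from 0 to 525 of all genes. Both were also smaller under other settings: without no3AT, AHP1 was at 0.58 and TSA1 at 0.0255, and neighbour-corrected AHP1 was at 0.81 (adjusted p = 0.251) and TSA1 at 0.0051 (adjusted p = 0.998). AHP1 stood at 1.16 (SE 0.38, adjusted p = 0.0798), TSA1 at 0.58 (SE 0.40), TRX2 at 0.49 (SE 0.27), SOD2 at 0.47 (SE 0.28) and CCP1 at 0.61 (SE 0.28). CTA1 was at 0.29, GPX2 at -0.44 and YHB1 at -0.29. CTT1 was at -0.00 and turned to between 0.00 and 0.26 under 10 alternatives, with the fit without 552 hours entered in duplicate. The sizes hide unlike cultures, which are given one by one below.

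In no3AT most members were above their galactose mean at 344 and 353 hours. AHP1 was at -0.34 and 0.53 there, against -2.46 and -2.01 in galactose, a change of 2.33 (SE 0.59, limma adjusted p = 0.210). TSA1 was at 0.25 and 0.89, against -1.44 and -0.81 in galactose, a change of 1.69 (SE 0.48, adjusted p = 0.234). On these centred values the early and galactose arrays of each gene were apart by more than their own spread. Neighbour-corrected, those of TSA1 overlapped, at 0.09 and -0.63 in early glucose against -1.60 and -0.47 in galactose. Neither gene passed over 4783 genes, where 0 were called in this comparison and 541 had an unadjusted p under 0.05. At 353 hours 9 of 10 members were above their own galactose mean, and 7 by more than 1. That array also held the highest values of CTA1 (2.15), YHB1 (1.74) and CTT1 (0.05) among all arrays. The neighbours' median on it was 1.68 for AHP1, 1.52 for TSA1, 0.98 for CTA1, 0.98 for YHB1 and 0.90 for CTT1. Neighbour-corrected, the early change in no3AT was 1.30 for AHP1 (SE 0.51, limma adjusted p = 0.408) and 0.76 for TSA1 (SE 0.49, adjusted p = 0.647). On that scale YHB1 changed by 0.73, CTT1 by 0.25 and CTA1 by 0.07, against 1.39, 0.95 and 0.47 on centred values. Why the neighbours moved was not tested.

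In 3AT40mM the early arrays differed from each other. At 552 hours AHP1 stood at -0.65, TSA1 at -0.71, TRX2 at -1.44 and SOD1 at -0.64, and 0 of 10 members had moved by more than 1 from their galactose mean. At 574 hours AHP1 stood at 0.77, TSA1 at 0.81, TRX2 at -0.06 and SOD1 at 0.67, and 5 of 10 members were higher by more than 1. CCP1 was at -0.54 at 552 hours and 1.23 at 574 hours, the highest CCP1 value on any array. Joined as early glucose, the 2 arrays gave changes of 1.19 (SE 0.59) for AHP1 and 1.00 (SE 0.48) for TSA1, and 0 members passed limma's test. With 574 hours alone, AHP1 was at 1.90 (adjusted p = 0.0361), TSA1 at 1.76 (adjusted p = 0.0128) and CCP1 at 1.70 (adjusted p = 0.00653), in a fit that called 10.3% of genes higher. A single array then stands for this phase and is assumed to vary like the others.

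In no3AT2 the first glucose array went the other way. At 315 hours AHP1 was at -2.55, TSA1 at -1.08, SOD1 at -1.41 and YHB1 at -2.75, each the lowest glucose value of that gene on any array. At 328 hours AHP1 was at -0.39, TSA1 at -0.34, SOD1 at -0.21 and YHB1 at -1.06, against -1.44 for AHP1, 0.24 for TSA1 and 0.70 for YHB1 on the galactose array. YHB1 fell by 2.61 in early no3AT2 (SE 0.58, limma adjusted p = 0.0487), where 0.523% of genes were called, all of them lower. The galactose side is 1 array, which has no spread of its own and is assumed to vary like the other groups. That call ended under 14 alternatives, and without the 315 hour array the change was -1.76 (adjusted p = 0.571).

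**Figure D3:**
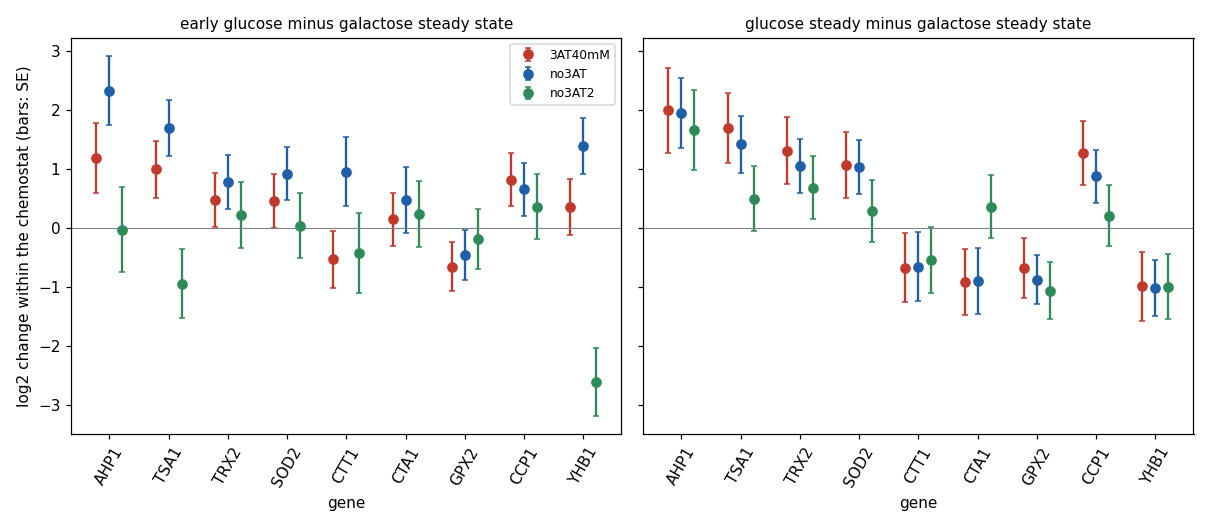
Log2 changes from galactose steady state within each chemostat for the 9 tested genes, with bars of 1 SE: early glucose on the left and glucose steady state on the right. YHB1 stands at 0.36 in 3AT40mM, 1.39 in no3AT and -2.61 in no3AT2 in early glucose, and at -0.99, -1.01 and -0.99 at glucose steady state.

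YHB1 was the 1 member of 9 called for a difference in its changes between the 2 cultures without inhibitor. Its early change differed by -4.00 between no3AT2 and no3AT (SE 0.75, limma adjusted p = 0.0393), in a comparison that called 0.105% of genes, all of them lower. Its change from early to steady glucose was 1.61 (SE 0.43, adjusted p = 0.0865) in no3AT2, where 0.648% of genes were called, and -2.40 (SE 0.47, adjusted p = 0.0171) in no3AT, a difference of 4.02 (SE 0.64, adjusted p = 0.00227), where 4.35% of genes were called. In no3AT the calls between glucose phases covered 1.02% of genes, all lower. The YHB1 call there ended under 7 alternatives, at -1.93 without 353 hours (adjusted p = 0.380), -2.12 without 507 hours (adjusted p = 0.0704), -2.68 without 526 hours (adjusted p = 0.0724) and -1.66 neighbour-corrected (adjusted p = 0.156). These differences between the 2 cultures were added after the data were seen, and each rests on 2 early arrays a culture. The early difference missed the threshold under 12 alternatives, at -3.15 without the 315 hour array (adjusted p = 0.415), -3.52 without the 353 hour array (adjusted p = 0.258) and -3.60 neighbour-corrected (adjusted p = 0.0878). Both differences rest on the same 4 early arrays, with opposite sign, and the change from galactose to steady glucose differed by 0.02 (SE 0.73) between the cultures, so they are 1 observation seen from either side. The early difference also rests on the single no3AT2 galactose array. Time since the switch was not matched between the cultures and their kind of RNA differed, so neither can be told apart from the culture. The difference between glucose phases missed the threshold under 1 alternative, with all glucose arrays before steady state taken as early (2.79, adjusted p = 0.290).

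Array by array, YHB1 was lower on the later glucose arrays of 2 cultures. In no3AT it was at 0.80 and 1.74 at 344 and 353 hours, then at -1.45 at 385, -0.91 at 478, -1.41 at 507 and -0.85 at 526 hours. In 3AT40mM it was at 0.21 and 0.49 at 552 and 574 hours, then at -0.54 at 592, -0.36 at 850, -1.02 at 878 and -1.0 at 937 hours. In both cultures the arrays after the first 2 in glucose all lay below the galactose values, which were -0.07 and 0.04 in 3AT40mM and 0.00 and -0.24 in no3AT.

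AHP1 stayed above its galactose values on the later glucose arrays. In no3AT it was at -0.57 at 385 hours and -0.00 at 478 hours, and in 3AT40mM at 0.25, -0.11 and 0.50 at 592, 850 and 878 hours. It was above its culture's own galactose mean on 16 of 17 glucose arrays (median 1.66), all but 315 hours in no3AT2. CCP1 was above on 16 of 17 (median 0.74), TSA1, TRX2 and SOD2 on 15 of 17 each (medians 1.09, 0.62 and 0.41), and GPX2 was below on 16 of 17 (median -0.62). CTT1 was below on 13 of 16 and YHB1 on 13 of 17, while CTA1 was below on 10 of 17. Arrays of 1 culture are all set against its 1 or 2 galactose arrays, so these counts are not of independent arrays. Neither they nor the SOD1 count above have a count over all genes beside them.

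Steady glucose was set against early glucose over the 3 chemostats to ask what changed during adaptation. By limma 0 of the 9 members passed, with 1 below 0.05 unadjusted, and 0% of all genes were called, with 344 of 4783 below 0.05 unadjusted. CTA1 stood at -0.77 (SE 0.32, adjusted p = 0.675), YHB1 at -0.71 (SE 0.58), CTT1 at -0.62 (SE 0.33) and AHP1 at 0.71 (SE 0.38). Without no3AT2, on 3AT40mM and no3AT alone, CTA1 at -1.21 (adjusted p = 0.0236) and YHB1 at -1.88 (adjusted p = 0.00466) passed. Fits that left out an array or a chemostat called from 0 to 305 of all genes, so these passes cannot be read as particular to the members.

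The 3AT40mM and no3AT cultures, both of total RNA, were set against each other to ask whether the genes differed with the inhibitor present. Of 45 tests (9 members in 3 phases and in 2 changes), limma called 0 and 0 had an unadjusted p under 0.05, and 0% of all genes were called in each of the 5 comparisons. With 1 culture a side, inhibitor and culture cannot be told apart. The largest difference in galactose was that of AHP1, at -1.05 and -1.21 in 3AT40mM, against -2.46 and -2.01 in no3AT. It came to 1.11 (SE 0.59, 95% interval -0.13 to 2.34, adjusted p = 0.996). The no3AT2 galactose array, at -1.44, lay between them. At glucose steady state the AHP1 difference was 1.15 (SE 0.72), and the difference of the changes was 0.04 (95% interval -1.91 to 1.99).

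The catalase genes, whose enzymes 3AT inhibits, showed no called difference. CTT1 differed by 0.58 in galactose (95% interval -0.65 to 1.81), by -0.91 in early glucose (-1.91 to 0.10) and by 0.56 at glucose steady state (-0.66 to 1.79). CTA1 differed by -0.43 in galactose (95% interval -1.59 to 0.74), by -0.76 in early glucose (-1.71 to 0.20) and by -0.45 at glucose steady state (-1.61 to 0.72). The early change of CTT1 differed by -1.49 (-3.07 to 0.10, limma adjusted p = 0.999), the largest in size of the 45 differences. That of CTA1 differed by -0.33 (-1.84 to 1.18). The changes to glucose steady state differed by -0.02 for CTT1 (-1.75 to 1.72) and -0.02 for CTA1 (-1.67 to 1.63). These intervals leave room for differences of more than 1 on the log2 scale in at least 1 direction. Against no3AT2, YHB1 in early glucose was the 1 member called, higher by 2.26 in 3AT40mM (SE 0.47, limma adjusted p = 0.00912), where 4.52% of genes were called higher. Against no3AT the same YHB1 difference had the other sign, at -0.92 (SE 0.47). The no3AT2 culture also differs from 3AT40mM in the kind of RNA, which cannot be told apart from the inhibitor there.

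Of 38 other genes listed for the same pathways, 31 were tested, and at glucose steady state 3 rose and 3 fell (median -0.14, against 0.02 over all genes), where 4.54% of all genes were called higher and 13.0% lower. Counts of 3 are too small to be read as above or below those shares. Those that rose were HAP1, a haem-dependent activator, at 1.54 (SE 0.31), OYE3, an NADPH oxidoreductase, at 1.25 (SE 0.39), and TKL1, the transketolase of the pentose phosphate pathway, at 1.20 (SE 0.27). Those that fell were GRX6, a glutaredoxin of the secretory pathway, at -0.92 (SE 0.26), TRX3, the mitochondrial thioredoxin, at -0.87 (SE 0.27), and SKN7, the regulator named above, at -0.86 (SE 0.27). CCS1, the copper chaperone of Sod1, stood at 0.98 (SE 0.33, limma adjusted p = 0.0527). With the neighbour-corrected values 0 of the 31 passed: HAP1 was at 1.09 (adjusted p = 0.128), OYE3 at 0.79 and TKL1 at 0.41, and GRX6, TRX3 and SKN7 came to -0.10, -0.10 and -0.18. YAP1, MSN2, MSN4, TRX1, SRX1, GRX7 and GTT2 had too few values to be tested.

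By list, 1 of 6 tested thioredoxin system genes fell, 1 of 12 glutathione genes fell, 1 of 5 dismutase and repair genes rose, 1 of 4 NADPH genes rose, and of 4 regulators 1 rose and 1 fell. Against the all-gene shares of 4.54% higher and 13.0% lower, counts this small say nothing particular of any list. TSA2, a close copy of TSA1, stood at 0.57 (SE 0.27) and GPX1 of the same family as GPX2 at 0.42 (SE 0.32). How far such copies share signal on these arrays was not tested. In early glucose and between glucose phases 0 of the 31 passed limma's test. Of the 31, 8 in early glucose and 4 between glucose phases had an unadjusted p under 0.05, beside 1116 and 344 of all 4783 genes. In early glucose 0.251% of all genes were called higher and 6.86% lower, and between glucose phases 0%. The largest values there were OYE3 at 1.17, GRX6 at -0.91 and DOT5, a nuclear peroxiredoxin, at -0.76 in early glucose, and HAP1 at 0.91, CCS1 at 0.91 and GRX5, a mitochondrial glutaredoxin, at 0.78 between glucose phases.

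**Figure D4:**
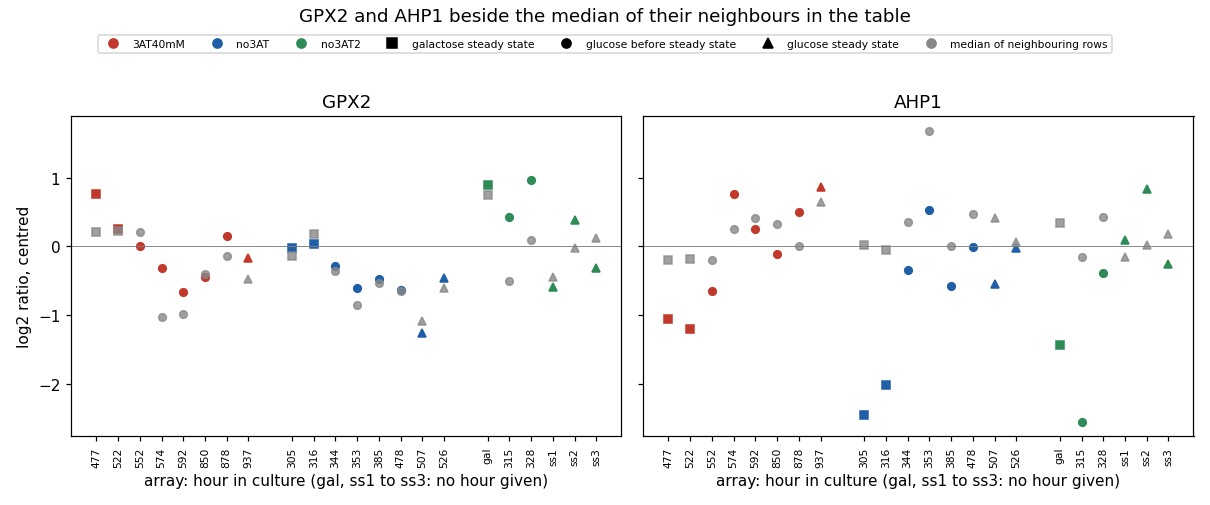
Centred log2 ratios of GPX2 (left) and AHP1 (right) on the 22 arrays, coloured by chemostat, with the median of the neighbouring rows of the table in grey. The median of the GPX2 neighbours changed by -0.81 at glucose steady state, against -0.87 for GPX2. On some early arrays GPX2 stands above them, at 0.43 against -0.51 at 315 hours, 0.97 against 0.09 at 328 hours and -0.31 against -1.03 at 574 hours. Its neighbour-corrected early change was -0.03 (SE 0.36) in 3AT40mM, 0.17 (SE 0.36) in no3AT and 0.77 (SE 0.44) in no3AT2. The AHP1 galactose values of -2.46 to -1.05 lie below those of its neighbours.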

How the data were processed

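RNA of 3 chemostats was measured on 22 two-colour arrays, with the sample in Cy5 and a pool of glucose and galactose RNA in Cy3, per the labels. The authors deposited log2 ratios (6281 rows, base assumed). The sources used here do not give scanning, background correction, normalization or filters. Depth is unknown, and the number of arrays limits the precision. Arrays lacked 138 to 1587 values (median 548).

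Of the row IDs, 5763 matched a gene of the R64 table. Rows of one gene were averaged to 6242 genes, and each array was centred on its median (-0.15 to 0.07). The 4783 genes tested had values on at least 80% of arrays and in all 9 pairs of chemostat and phase. Changes shared by the chemostats came from limma 3.58.1 (R 4.3.3) on 9 means of 17 arrays blocked by chemostat (4 residual and 10.4 prior degrees of freedom). Changes in single cultures and their differences came from limma on the 17 arrays (8 and 11.4). Those p-values measure only the spread of arrays from a single culture, which could be technical. The 5 later glucose arrays entered no main fit. Two-sided p-values were adjusted over all genes tested (Benjamini-Hochberg, threshold 0.05).

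Members and lists were chosen with earlier results of these data known. Named genes are the 10 members, pathway genes that passed, and those with the largest change. The test was checked on simulated data. Alternatives covered normalization, filters, moderation, the block, early glucose, neighbour correction, and leaving out arrays and chemostats. Where the array left out was the only array of a phase in its culture, the fit over chemostats also drew on that culture's other phases.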

Additional observations from a re-analysis of the deposited data

Results flagged for a closer look

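The early glucose change of YHB1 differed between the cultures without inhibitor by -4.00 (no3AT2 minus no3AT, limma adjusted p = 0.0393), with arrays at -2.75 and -1.06 in no3AT2, against 0.80 and 1.74 in no3AT. Its change from early to steady glucose differed by 4.02 in the other direction (limma adjusted p = 0.00227). Each difference between cultures passed a test, but both rest on the same 4 early arrays with opposite sign, and the change from galactose to steady glucose differed by 0.02, so they are 1 observation and not 2 independent ones. The no3AT2 galactose side of the first is 1 array. Time since the switch was not matched between the cultures, and their kind of RNA differed.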

How the results depend on the processing

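At glucose steady state against galactose, 3 members and 840 genes were called. Members called were 6 with quantile normalization or all glucose arrays before steady state as early, 5 with arrays as units, 1 without 552 hours, and 0 neighbour-corrected, with or without 552 hours. Genes called were 363 without 552 hours, 432 with no replicate block, 20 neighbour-corrected and 0 neighbour-corrected without 552 hours. Leaving out 1 array or chemostat gave 0 to 7 members and 173 to 1154 genes. In early glucose (0 members, 340 genes), 1 member was called with quantile normalization, all arrays before steady state as early, or without 552 hours. Genes called there were 217 with quantile normalization, 617 with all arrays before steady state, and 0 with no replicate block or neighbour-corrected, with or without 552 hours. Leaving out gave 0 to 2 members and 0 to 525 genes, and 0 to 2 members and 0 to 305 genes between glucose phases. Within chemostats 2 member calls became 11 without 552 hours, 6 neighbour-corrected without 552 hours, 0 with all arrays before steady state, and 1 with values as deposited, quantile normalization, no 80% minimum, neighbour correction or robust moderation, and leaving out gave 0 to 11. The inhibitor difference had 0 member calls, 1 with no3AT2 as control, and 0 to 1 on leaving out.

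Values near 0 turned sign, and the cause was not tested. CCP1 between glucose phases was -0.12 without 552 hours and -0.22 neighbour-corrected without it (-0.12 to 0.47 on leaving out). CTA1 in early glucose was -0.0746 with all arrays before steady state. Leaving out moved YHB1 between -1.12 and 0.875 in early glucose and between -1.88 and 0.13 between glucose phases. CTT1 in early glucose was 0.0037 as deposited, 0.19 with quantile normalization, 0.12 without 552 hours and 0.0017 with arrays as units (-0.48 to 0.26). GPX2 in early glucose was 0.30 neighbour-corrected and 0.46 without 552 hours too. The neighbour-corrected fits without 552 hours were chosen after seeing the data. No detection limit could be set, since no intensities are given.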
